A study of Mus musculus with 4 samples.

Results

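Passenger strands, named with a star in the array's annotation, were followed against their guide strands in maturing mouse cortical neurons. A star strand was included where its name belongs to a mouse miRNA other than miR-9* and miR-124* and its signal reached 300 on at least 1 of 4 arrays. The members were thus chosen by measured signal, and being detected is not a result. In all, 95 star strands qualified, out of 326 on the array and 419 detected mouse miRNAs. Each was paired with the guide of the same name without the star and without the number of the locus, which 94 of the 95 had.

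The samples were primary cultures of cortical neurons from Swiss Albino mouse embryos of gestation day 15, grown without any treatment and harvested after 2, 4, 6 or 8 days in culture. There was 1 array per day. The methods state that RNA of separate experiments was pooled for each day, so each day is a single pool and the spread between cultures cannot be measured. Signal is the background-subtracted intensity, averaged over 4 spots. The signal log ratio (SLR) is the normalized log2 difference from Day 2, and SLRs beyond 0.6 were counted, as the study's methods set it. Each ± after an SLR or a ratio change combines the SDs over spots of the arrays involved, and so gives technical error alone. A single day cannot be tested against Day 2 in this design.

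A miRNA gene is transcribed as a hairpin, and Dicer cuts a duplex of both arms from it. One arm, the guide, is usually loaded into an Argonaute protein and directs it to messenger RNAs through its seed. The other, the passenger or star strand, is usually degraded, although some star strands are loaded as well. Both arms come from the same transcript, so changes in transcription act on both, whereas loading and decay act on each arm. In neurons, miR-138, miR-137 and miR-132 are known for roles in dendrites and synapses, and the miR-17-92 family is known for its activity in dividing progenitors.

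The sequences below are mature strands from RefSeq (GRCm38.p6), written 5′ to 3′, with the seed (bases 2 to 8) in capitals. They are shown because these pairs diverged most, or moved together, between Day 2 and Day 8. The first set holds miR-25, whose hairpin lies on chromosome 5 from 138165321 to 138165404 on the minus strand, and the related miR-17 on chromosome 14.
miR-25*: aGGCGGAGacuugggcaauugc
miR-25: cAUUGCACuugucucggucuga
miR-17*: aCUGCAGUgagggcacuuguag
miR-17: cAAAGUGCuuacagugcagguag

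The second set holds pairs in which the guide gained on the star. The miR-138 guide is made from 2 loci, on chromosomes 9 and 8, whose star strands are similar but differ in sequence. Whether each star probe binds the strand of its own locus alone was not tested.
miR-138-1*: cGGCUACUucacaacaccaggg
miR-138-2*: gCUAUUUCacgacaccagggu
miR-138: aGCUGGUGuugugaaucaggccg
miR-433*: uACGGUGAgccugucauuauuc
miR-433: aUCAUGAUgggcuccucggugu
miR-551b*: gAAAUCAAgcuugggugagaccu
miR-551b: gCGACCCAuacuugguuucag

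The third set holds strands that moved with their guides, and miR-30c-1*, which rose. The 2 star strands of the miR-181 family have the same seed.
miR-181a-1*: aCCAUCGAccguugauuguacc
miR-181c*: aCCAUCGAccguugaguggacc
miR-708*: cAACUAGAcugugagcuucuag
miR-127*: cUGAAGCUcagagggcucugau
miR-30c-1*: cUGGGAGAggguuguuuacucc

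Of 64 star strands given an arm, 61 were found in RefSeq, and 56 pairs had both strands. In these, 34 stars lay on the 3p arm and 22 on the 5p arm, and in 0 pairs did star and guide share a seed. The first base was U in 11 of 56 stars (19.6%) and in 28 of 55 guides (50.9%). It was C in 20 stars and 4 guides. Median length was 22 bases in both. The arm given to miR-330* was 5p, but the probe of its guide carries the human name miR-330-5p. Star and guide of that hairpin are therefore exchanged in these counts.

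Among members, 69 were at 300 or more on all 4 days, 15 on 3 days, 4 on 2 days and 7 on 1 day. The members just inside the threshold were miR-674*, miR-210* and miR-377*, with highest signals of 318, 324 and 327. Just outside were miR-130b*, miR-382* and miR-3062*, with 293, 288 and 270. Mean signal over the days ran from 177 to 37462, with a median of 747. No negative control exceeded 139.

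Many detected star strands had a guide that was not detected. The guide was at 300 or more on all days for 47 members, on 1 to 3 days for 11 and on 0 days for 36. Conversely, of 157 detected guides that have a star on the array, 56 had a detected star and 101 had none. The brightest member, miR-491*, had signals of 37539, 39690, 28723 and 43896 on Days 2, 4, 6 and 8, while its guide stayed between 85.1 and 142. For miR-155, whose guide is known from leukocytes, the star gave 644, 720, 374 and 561, and the guide at most 66.5. Signals of different probes cannot be set against each other as amounts, since each probe binds with its own strength. Probes for viral miRNAs show how bright a signal can be without a mouse target by name. Of 202 such probes, 36 were at 300 or more on Days 2 and 8, with a highest mean signal of 16439. On Day 8, 7 of these 36 were higher by over 0.6 and 1 was lower. The part of binding to other RNAs in the members' signals was not tested.

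The culture was checked by its marker miRNAs. The neuronal miR-124 and miR-9 were saturated on the arrays, and miR-138 went from 4267 on Day 2 to 10791 on Day 8. The markers of astrocytes and mesenchyme miR-143 and miR-145 stayed at or below 29.5, and the myeloid miR-223 at or below 28.0. The leukocyte miR-142-3p went from 471 on Day 2 to 82.9 on Day 8 and the erythroid miR-451 from 632 to 106, and both were under the threshold on Days 6 and 8. The other leukocyte, erythroid and endothelial markers were under the threshold on all days. Lower on Day 8 than on Day 2 were miR-142-5p (86.5 to 19.9) and miR-144 (204 to 36.0). Higher were miR-150 (238 to 285), miR-146a (15.8 to 45.2), miR-155 (14.5 to 48.6), miR-223 (-35.6 to 16.1) and miR-126-3p (63.8 to 116). The part of such cells in the members' changes was not tested. Of the 4 markers of astrocytes and mesenchyme 2 were detected, miR-21 (372 to 288 from Day 2 to Day 8) and miR-214 (548 to 738), as were both oligodendrocyte markers, miR-219-5p (460 to 349) and miR-338-3p (957 to 1234). Mean signal of mouse probes was 1524, 1653, 1275 and 1558 on the 4 days, so signals, which are not normalized, run low on Day 6. In pooled bulk RNA, fewer cells of a type and less RNA per cell cannot be told apart.

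Few star strands changed early. On Day 4, 4 members were higher than on Day 2 by over 0.6 and 0 were lower, against 7.16% and 1.91% of all 419 detected miRNAs. Of the 4, miR-127* was at 300 or more on both arrays (SLR 0.66 ± 0.34). The others, miR-411*, miR-136* and miR-30c-1*, were under 300 on Day 2 and became members only through later days, so that a higher value there was built into their choice. On Day 6, 6 were higher and 3 lower, where the background was 9.79% and 4.53%. To those 4, Day 6 added miR-132* (0.84 ± 0.12) and miR-376a*, while miR-20a*, miR-494* and miR-708* (-0.61 ± 0.15) were lower. At 300 or more on both arrays were 2 of the 6, miR-127* and miR-132*, and 1 of the 3, miR-708*. The spots of miR-494* disagreed on Day 2, and its SLR on Day 8 was -0.55 ± 1.14. On Day 8, 8 were higher (8.42% of members) and 7 lower (7.37%), against 10.7% and 11.2% of all detected miRNAs. Of the 8 higher members 2 were at 300 or more on both arrays, and of the 7 lower ones 5. A member that reached 300 on 1 of the 2 days alone had to have the higher signal, before normalization, on that day. The split depended on scaling, with 19 higher and 3 lower on Day 8 under endogenous controls, 11 and 5 under cyclic loess, and 1 and 18 without normalization. The median SLR of the members was -0.05, -0.02 and -0.03 on Days 4, 6 and 8, and that of all detected miRNAs -0.01, -0.01 and -0.03.

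**Figure D1:**
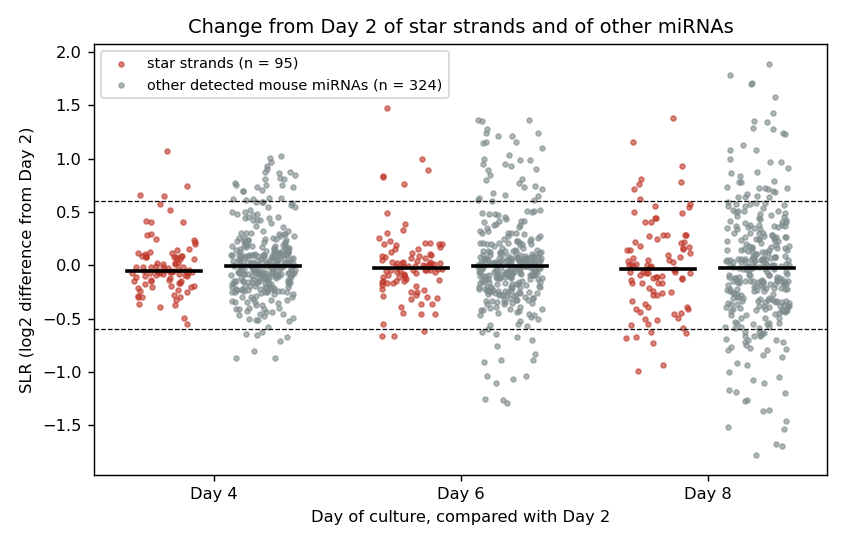
The SLR on the vertical axis is the log2 difference from Day 2, with 1 point per miRNA, red for the 95 star strands and grey for the other 324 detected mouse miRNAs. Bars mark medians and dashed lines mark 0.6 either way. Both medians lie near 0 on each day, and on Day 8 the star strands span -0.99 to 1.38.

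The plot of SLRs by day shows star strands within the range of the other miRNAs. On Day 8, 15.8% of members, 33.9% of their 56 detected guides and 22.0% of all detected miRNAs were beyond 0.6, and the difference between these shares was not tested. By mean signal, 8 of 34 members and 12 of 76 other detected miRNAs were beyond 0.6 below 500, and 4 of 29 and 18 of 89 at 500 to 1000. At 1000 to 3000 it was 3 of 23 and 25 of 89, and at 3000 or more 0 of 9 and 22 of 70.

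Members were also divided by the detection of their guides, without a test. The 47 with a guide at 300 or more on all days ranged from -0.99 to 1.38 on Day 8, with an SD of 0.50 and 12 beyond 0.6. The 36 with a guide under 300 throughout ranged from -0.55 to 0.50, with an SD of 0.25 and 0 beyond 0.6. Among the latter, miR-193b* went from 1137 on Day 2 to 1774 on Day 8, an SLR of 0.50 ± 0.06, and miR-758* from 629 to 1031 (0.49 ± 0.08). The star miR-592* went from 697 to 1103 (0.45 ± 0.08).

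Of the 8 star strands that were higher on Day 8, 4 came from the imprinted Dlk1-Dio3 domain, a cluster of maternally expressed miRNAs that is active in brain. Of 34 of its stars on the array, 17 were detected. Of these, 4 were higher by over 0.6 and 0 lower, against 10.7% and 11.2% of all detected miRNAs. The median of the domain's stars was 0.25, and that of its 10 measured guides 0.60. The star miR-127* gave signals of 553, 1035, 865 and 1148, and its guide 1397, 2662, 2081 and 3005. Both were lowest on Day 2. On Day 8 the SLRs were 0.81 ± 0.34 and 0.87 ± 0.09. The wide error comes from Day 2, where spots of the star ran from 329 to 651.

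The other 3 were under 300 on Day 2 and became members only through later days, so a higher value was built into their choice. Only bounds can be given for them on Day 8. The star miR-136* (273, 641, 528 and 701) was at least 1.73-fold higher, miR-411* (156, 515, 479 and 509) at least 1.35-fold and miR-376a* (396, 349 and 462 on Days 4, 6 and 8) at least 1.25-fold. Their guides had SLRs of 1.28 ± 0.22, 1.08 ± 0.71 and 0.96 ± 0.16, of which miR-411 was itself under 300 on Day 2. Not all stars of the domain moved so: miR-493* was at -0.56 ± 0.33 and miR-433* at -0.34 ± 0.07 (-0.44 to 0.11 over the settings tried), and 7 of the 17 lay below 0.

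The star miR-132*, whose guide is induced by neuronal activity, gave 412, 784, 671 and 743, lowest on Day 2. Its SLR was 0.57 ± 0.13 on Day 8, and that of its guide 1.08 ± 0.23. The star miR-204* gave 1067, 1307, 977 and 1853, with an SLR of 0.63 ± 0.06 on Day 8, and its guide 0.35 ± 0.07. Day 8 stood above the other days. The star miR-21* went from 1738 to 2858 (0.55 ± 0.06) while its guide went from 372 to 288, the latter under the threshold. The star miR-30c-1* gave 205, 443, 324 and 783, at least 1.9-fold higher on Day 8. Its guide, with signals of 12033 and 9518 on Days 2 and 8, had an SLR of -0.34 ± 0.09. Bounds of at least 1.14-fold for miR-881* and 1.03-fold for miR-425* complete the 8.

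The falling star strands included those of the miR-17-92 family, whose guides promote proliferation. Of 15 of its stars on the array 5 were detected, and 3 were lower on Day 8 by over 0.6, against 11.2% of all detected miRNAs. The star miR-17* gave 1766, 1579, 932 and 1126, an SLR of -0.67 ± 0.04 on Day 8. The star miR-106b* gave 619, 546, 342 and 376 (-0.63 ± 0.14). In both, Days 6 and 8 lay below Days 2 and 4. The star miR-20a* went from 472 to 197, at least 1.45-fold lower. It reached 300 on Days 2 and 4 alone, so its fall was in part built into its choice. The guides of miR-17*, miR-106b* and miR-20a* had SLRs of -1.46 ± 0.36, -1.19 ± 0.06 and -1.54 ± 0.08. These guides all have the same seed, and binding of a guide to the probe of another was not tested. The remaining detected stars of the family, miR-25* and miR-92a-2*, were at 0.56 ± 0.07 and 0.22 ± 0.08.

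Outside this family, miR-708* gave 887, 864, 408 and 414, an SLR of -0.99 ± 0.09 on Day 8, and its guide -0.91 ± 0.08. On Days 4 and 6 the star was at -0.18 ± 0.07 and -0.61 ± 0.15, and the guide at -0.3 ± 0.1 and -0.51 ± 0.08. Both detected stars of the miR-181 family were lower, miR-181a-1* at -0.68 ± 0.13 and miR-181c* at -0.58 ± 0.12, with guides at -0.54 ± 0.29 and -0.59 ± 0.11. The star miR-3084* gave 3491, 3367, 2054 and 2238 (-0.73 ± 0.15), while its guide was at -0.15 ± 0.16. The star miR-26a-2* was at least 1.53-fold lower, and its guide was at -0.23 ± 0.07. The star miR-24-1* was at -0.52 ± 0.53, within its spot error.

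**Figure D2:**
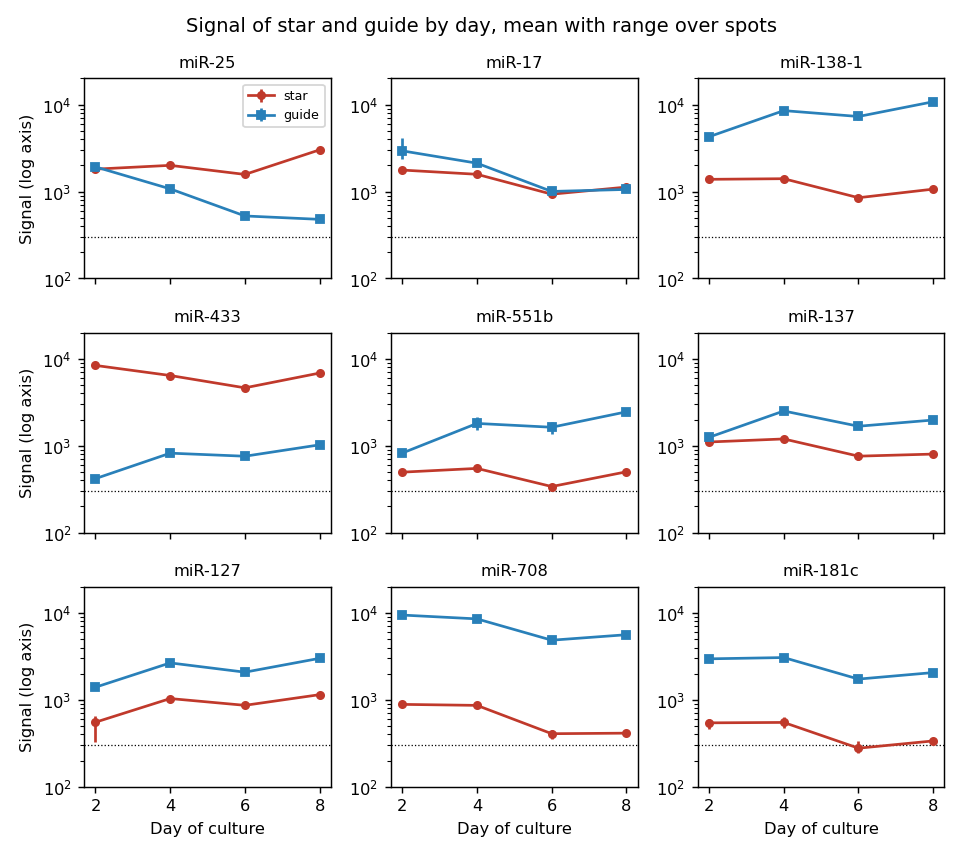
Background-subtracted signal (vertical log axis) of star (red circles) and guide (blue squares) on Days 2, 4, 6 and 8 for 9 hairpins, as the mean with the range over spots, and the threshold of 300 dotted. Strands of miR-25 part, from 1810 and 1922 on Day 2 to 3019 and 479 on Day 8, while those of miR-127, miR-708 and miR-181c run together.

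Straight lines over the day were tested with limma across all 419 detected miRNAs, two-sided. Of the members 1 rose and 8 fell at an adjusted p under 0.05, where 3.58% of all detected miRNAs rose and 9.55% fell. The falling members were 8.42% of the 95. The riser was miR-30c-1* (adjusted p = 0.0182). It was under 300 on Day 2, with spots from 70.9 to 292, and became a member through the days where it was high, so its rise was in part built into its choice. With 300 required on all 4 arrays 0 members rose. The fallers were miR-20a* (adjusted p = 0.0106), miR-708* (0.0137), miR-17* (0.0256), miR-3084* (0.0264), miR-181a-1* and miR-181c* (both 0.0367), miR-106b* (0.0466) and miR-26a-2* (0.0469). Of these, miR-20a*, miR-181c* and miR-26a-2* were under 300 on at least 1 later day. They became members through the days where they were higher, miR-20a* through Days 2 and 4 alone. Their falls were thus in part built into their choice. With 300 required on all 4 arrays they were left out and 7 members fell, with miR-138-1* and miR-24-1* added. In the main setting the guides of 6 of the 8 fallers fell too. Those of miR-3084* and miR-26a-2* did not pass (adjusted p = 0.421 and 0.236). Of 56 guides tested, 2 rose and 10 fell. Only 2 residual degrees of freedom remain, and the calls lean on single arrays and on the scaling. Without Day 8, 0 members passed, without Day 6 0 fell, without Day 4 2 fell, and without Day 2 12 fell and 14 rose. Under endogenous controls 10 rose and 2 fell, and under spike-in controls 0 passed.

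The ratio of star to guide was then compared between days. The binding strength of each probe and a common scale of an array multiply the signal, and so cancel in the ratio's change. Binding to other RNAs and the constant added in background correction add to the signal and do not cancel. A steady added signal in a star's probe shrinks its SLR, and the ratio change then mainly follows the guide. The part of binding to other RNAs in the ratio changes was not tested. On Day 8, 41 pairs with 39 different guides had both strands at 300 or more on Days 2 and 8. The ratio changed by over 0.6 in 11 pairs (26.8%), and in 14 with plain background subtraction, which adds no constant. The background was 5.0% of 20 hairpins whose arms are both named 5p and 3p, which ranged from -0.96 to 0.44. These 20 are not separate measurements: they rest on 19 different 5p and 16 different 3p probes, with 5 of them sharing a 3p probe, and 9 are of the repeated miR-466 and miR-669 genes. The shares of 26.8% and 5.0% are therefore a description. In 9 of the 11 the guide gained on the star, and in 2 the star gained on the guide. The median change was -0.11, with quartiles at -0.51 and 0.14, and 27 of 41 pairs lay below 0. In 8 of the 11 pairs the guide itself was beyond 0.6, with the miR-138 guide counted in 2 of them, and in 1 the star was. Over all pairs it was 14 of 39 guides, each counted once, and 7 of 41 stars. The 11 were chosen by the difference between star and guide, which favours strands with large SLRs. The SLRs had an SD of 0.39 in stars and 0.70 in guides.

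**Figure D3:**
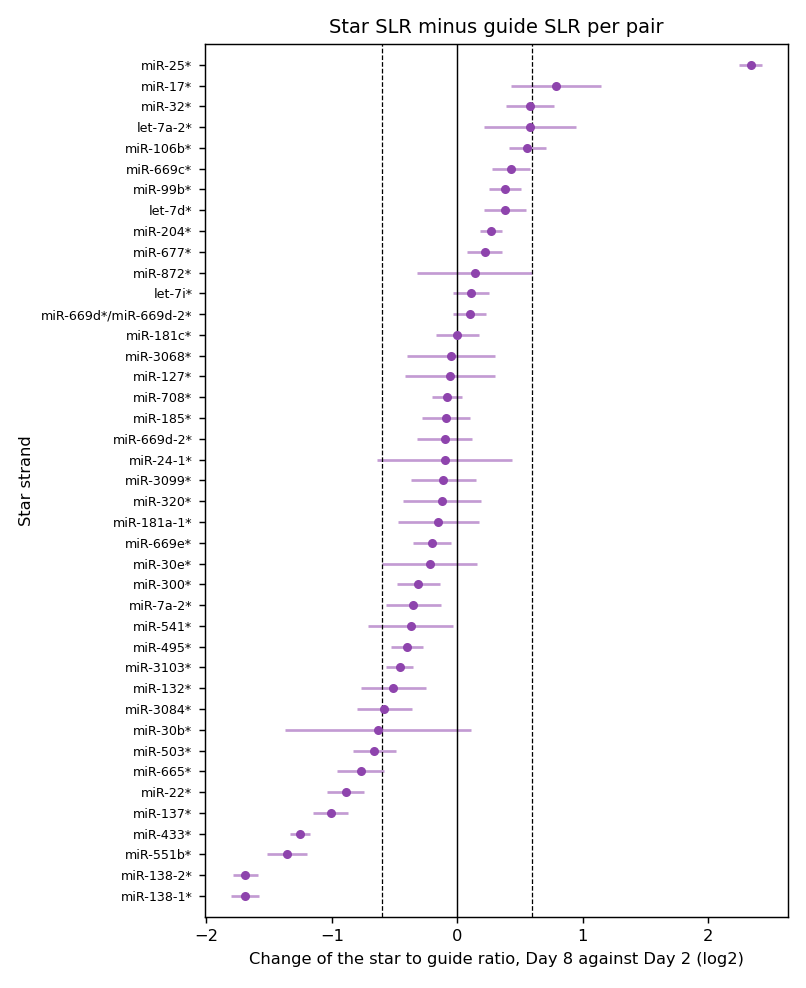
Change of the star to guide ratio between Day 2 and Day 8 (horizontal axis, log2) for 41 pairs, with the SD over spots and dashed lines at 0.6 either way. The pair of miR-25 stands at 2.34, and the lowest values are -1.69 for both stars of miR-138.

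The largest change was that of miR-25. The star gave 1810, 2001, 1573 and 3019 on Days 2, 4, 6 and 8, and the guide 1922, 1073, 524 and 479. The star was highest on Day 8 and the guide on Day 2, and spots of the star ran from 1743 to 1845 on Day 2 and from 2855 to 3105 on Day 8. The star gained on the guide by 0.88 ± 0.09 on Day 4, 1.5 ± 0.09 on Day 6 and 2.34 ± 0.09 on Day 8. By limma the guide fell (-0.29 ± 0.03 per day, SE, adjusted p = 0.0084), and the star had a slope of 0.09 ± 0.02 (adjusted p = 0.0776). The change on Day 8 lay between 2.32 and 2.72 over 12 settings of background correction, scaling and spot summary. Scaling by controls or by the median and no normalization are bound to give 1 value per pair, since an array-wide shift cancels. The 12 are therefore not separate checks of any pair. The gene of miR-25 lies in a cluster with that of miR-106b, whose pair changed by 0.56 ± 0.15 (0.17 to 0.60 over the settings tried) as both of its strands fell.

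The star of miR-17 gained on its guide by 0.79 ± 0.36 (0.68 to 0.92 over the settings tried), as both strands fell. Next in this direction were let-7a-2* (0.58 ± 0.37, and 0.24 to 0.70 over the settings tried) and miR-32* (0.58 ± 0.19, and 0.46 to 0.64), within the threshold here and past it in some settings. In these, the star stayed near its Day 2 level (SLR 0.00 ± 0.07 and -0.04 ± 0.19) and the guide was at -0.58 ± 0.36 and -0.62 ± 0.04. By limma the guide miR-32 fell (adjusted p = 0.0367).

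In the opposite direction, the neuronal miR-138 guide gave 4267, 8529, 7298 and 10791, an SLR of 1.24 ± 0.09 on Day 8 (limma slope 0.21 ± 0.04 per day, SE, adjusted p = 0.0367). The star of its first locus, miR-138-1*, gave 1382, 1405, 849 and 1066 (-0.46 ± 0.07), and that of the second, miR-138-2*, 6959, 8358, 4883 and 5756 (-0.45 ± 0.04). The guide was lowest on Day 2, where both stars were above their Day 6 and Day 8 signals. The SLR of miR-138-2* ran from -0.50 to 0.12 over the settings tried and that of miR-138-1* from -0.53 to -0.10, so the direction of the former flips with scaling. The ratio change was -1.69 for each, with errors of 0.11 and 0.10, and stayed between -1.78 and -1.57. Both use the same guide value, so they are not independent. Binding of either star strand to the probe of the other was not tested.

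The star of miR-433 gave 8384, 6418, 4630 and 6852 and its guide 418, 821, 757 and 1023, a ratio change of -1.25 ± 0.08 (-1.56 to -0.99 over the settings tried). The star was highest and the guide lowest on Day 2. For miR-551b the star gave 496, 548, 339 and 501 and the guide 822, 1804, 1630 and 2453. Here the star was at -0.07 ± 0.07 on Day 8 and the guide rose by limma (adjusted p = 0.0469), for a ratio change of -1.36 ± 0.16. For miR-137, which acts in neuronal differentiation, the star gave 1103, 1196, 758 and 801 and the guide 1248, 2508, 1674 and 1974, a ratio change of -1.01 ± 0.14. The remaining pairs beyond 0.6 were miR-22* (-0.89), miR-665* (-0.77), miR-503* (-0.66, and -0.77 to -0.52 over the settings tried) and miR-30b* (-0.63 ± 0.74, within its spot error, and -0.75 to -0.24 over the settings tried).

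**Figure D4:**
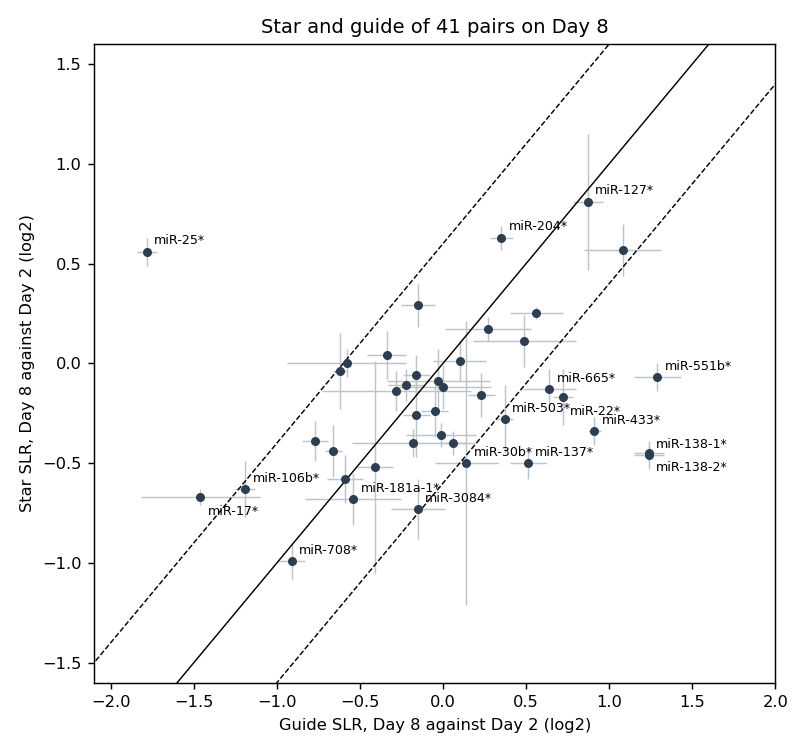
Star SLR (vertical) against guide SLR (horizontal) on Day 8, both log2 differences from Day 2, for 41 pairs with SDs over spots. The solid line marks equal change and the dashed lines 0.6 to either side. Guides span -1.78 to 1.29 and stars -0.99 to 0.81.

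The divergence was already present on earlier days for most of these. On Day 4, 7 of 44 pairs (15.9%) were beyond 0.6, and on Day 6 10 of 35 (28.6%). The pairs of miR-25, miR-138-1, miR-138-2, miR-433, miR-551b and miR-137 were among them on both days. On Day 4 they stood at 0.88, -0.84, -0.66, -1.12, -0.92 and -0.86. As background, the hairpins with arms named 5p and 3p ranged from -0.34 to 0.45 on Day 4, none beyond 0.6. On Day 6 they ranged from -0.71 to 0.48, with miR-770 alone beyond 0.6. As all 3 comparisons use the same Day 2 array, they are not independent of each other.

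Across the 41 pairs, star and guide SLRs on Day 8 had a Pearson r of 0.27 and a Spearman rho of 0.29, and 25 pairs had the same sign. Over the 20 hairpins with arms named 5p and 3p the values were 0.68 and 0.55. The points share both arrays, and several hairpins share a transcript, so these are descriptions only.

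The remaining families are given by their ranges. In the Sfmbt2 cluster, an intronic array of repeated miRNA genes of rodents, 13 of 15 stars were detected, 0 were beyond 0.6 on Day 8, and SLRs ran from -0.26 to 0.41. The 3 detected let-7 stars ran from -0.11 to 0.04. Of the stars of neuron-enriched guides, 9 of 25 were detected and ran from -0.50 to 0.57, with a median of -0.06 on Day 8, and 1 of them, miR-132*, was beyond 0.6 on Day 6, while their 4 measured guides had a median of 0.80. No star of the miR-29 family (4 on the array) or of miR-15, miR-16 and their relatives (7 on the array) was detected. Among the brightest members, miR-3068* was at -0.09 ± 0.16. The star miR-491* was at -0.08 ± 0.22 and miR-300* at 0.25 ± 0.03, but under endogenous controls they were at 0.63 and 0.82, past 0.6. Over 46 stars with a sequence and 300 or more on both arrays, the share of each base had a Spearman rho with the Day 8 SLR between -0.18 and 0.17.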

How the data were processed

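The deposited scanner files hold foreground and background intensity per spot and the percent of saturated pixels, as the authors' scanner software wrote them, not normalized between arrays. The deposited value table holds intensity, equal to the mean over spots of median foreground minus background (largest difference 4.4e-06). Mean foreground was corrected with normexp (offset 50, all spots) in limma 3.58.1 under R 4.3.3, log2-transformed, quantile-normalized over miRNA spots and averaged per probe. Arrays held 12312 spots, and their number limits the precision. Pairs needed 300 or more for both strands on both arrays, and guides with 50% or more saturated pixels were left out. With several probes, the brightest stood for the guide. Where 1 array was under 300, a lower bound of the fold used, for the dim array, the larger of 2 values: the strand's own signal and the dimmest signal among probes whose spots all reached 300. Slopes over the day used lmFit and eBayes with Benjamini-Hochberg adjustment over all detected miRNAs at 0.05. The slope test was also run on simulated data, with noise drawn separately for each miRNA and array. That simulation holds no array-wide or scaling shifts, so it does not test the calls against them. Arms of star strands were assigned from background knowledge, and 8 of 8 that could be checked were the same in another species' name on the star's own probe. That check did not cover miR-330*, whose arm goes against the human name on the probe of its guide. Named strands were the 8 largest SLRs each way on Day 8 among those at 300 on both arrays, the 5 largest ratio changes each way, those passing the trend test, the 6 brightest and 3 on each side of the threshold. Strands under 300 on 1 array, those in families and miR-155* were named besides, after their values were seen. Members and lists were chosen with earlier results of these data known.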

Additional observations from a re-analysis of the deposited data

How the results depend on the processing

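None of the 15 strands beyond 0.6 on Day 8, and none of the 11 such ratio changes, reversed its sign under the 11 alternatives of background correction, scaling, input and spots. For the ratio changes, endogenous controls, spike-in controls, median scaling and no normalization count as 1 setting, because an array-wide shift cancels in them. Of the 6 higher strands under 300 on Day 2, miR-425* ran from 0.05 to 1.19, miR-881* from 0.16 to 1.31, miR-376a* from 0.21 to 1.15, miR-136* from 0.51 to 1.26, miR-411* from 0.53 to 1.72 and miR-30c-1* from 0.87 to 2.00. Scaling by spike-in controls and leaving out spots bright in the red channel were chosen after seeing the data. The count of members beyond 0.6 on Day 4, which was 4, became 10 with plain subtraction, 8 with the deposited value table, 15 with spike-in controls, 2 with median scaling, no normalization, cyclic loess or the median of spots, and 1 with 300 required on all 4 arrays or an SLR beyond 1. On Day 6 the 9 became 59 without normalization, 57 with spike-in controls, 5 with cyclic loess, 3 with 300 on all arrays and 1 with an SLR beyond 1. On Day 8 the 15 became 7 with 300 on all arrays and 2 with an SLR beyond 1. The members' median SLR on Days 4, 6 and 8 was 0.13, 0.10 and 0.17 with endogenous controls. It was -0.40 and -0.65 on Days 4 and 6 with spike-in controls, and -0.68 and -0.26 on Days 6 and 8 without normalization. The median of all detected miRNAs shifted alike, to 0.18, 0.13 and 0.18, to -0.36 and -0.62, and to -0.65 and -0.25. The median ratio change on Day 8 was -0.23 with endogenous controls, spike-in controls, median scaling or no normalization, and that on Day 6 was -0.11 with pairs taken at 150. That these scalings share -0.23 was fixed in advance, as they differ by array-wide shifts that cancel in the ratio. They differ from the main setting in leaving out quantile normalization. The cause of the other shifts was not tested.

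By the trend test, 8 members fell and 1 rose. The numbers were 2 and 10 with endogenous controls, 3 and 0 without normalization, and 0 and 0 with spike-in controls. The count that rose was 2 without background correction, 3 with median scaling, 6 with cyclic loess and 0 with 300 on all arrays, and 4 fell without a filter. Leaving out 1 day gave 0 to 12 that fell and 0 to 14 that rose. No paired analysis was possible because each day has 1 array. With 1 pool per day, differences between cultures cannot be told apart from differences between days.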
